A study of Mus musculus with 10 samples.

Results

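Glycolysis turns glucose into pyruvate, and lactate dehydrogenase converts pyruvate and lactate into each other. The genes described here stand along that route in mouse ovaries but do not cover all of its steps. They are Slc2a1, Hk1, Hk2, Gpi1, Pfkp, Aldoa, Pgk1, Pkm, Ldha and Ldhb. They were taken by symbol as genes of this route, and 11 of the 55487 gene identifiers in the deposited table carry these 10 symbols, because Aldoa appears under 2 identifiers. All 11 passed the filter on low counts that left 18956 genes for testing. In Aged ovaries Aldoa was higher than in Control ovaries, at 891 ± 190.0 CPM (SD, n = 3) against 533 ± 64.6 CPM (n = 4), and it was the only member that passed the test at adjusted p. In Aged+CF ovaries it stood at 608 ± 80.6 CPM (n = 3).

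A library was made per ovary, from 4 female C57BL/6J mice of 8 weeks (Control), 3 old mice (Aged) and 3 old mice given CEFFE (Aged+CF), all of the same sex and strain. The sample labels give the Aged and Aged+CF mice an age of 11 months, whereas the study's methods give 10 months. Aged+CF mice received CEFFE, a cell-free extract of fat tissue, as 200 μL at 3 μg/μL of protein through the tail vein every 2 days for 2 weeks, while Control and Aged mice were given saline in its place. Every mouse of all 3 groups was also given 10 IU of PMSG, a gonadotropin that drives follicle growth, 48 h before the ovary was taken, so that no group shows an unstimulated ovary. RNA came from whole ovaries, so fewer cells of a type and less RNA per cell cannot be told apart in any value below.

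In the ovary, granulosa and cumulus cells are known to take up most of the glucose and to pass pyruvate and lactate to the oocyte, which uses little glucose itself. Luteal cells are richly supplied with blood and take up glucose as fuel and as a source of reducing power for steroid synthesis. Glycolytic enzymes exist as isozymes encoded by separate genes, and many of those genes are textbook targets of the hypoxia-inducible factor HIF-1, which binds promoters at the letters ACGTG. Lactate dehydrogenase is a tetramer of A and B subunits from Ldha and Ldhb, and mouse oocytes are known to hold mostly the B form.

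Aldoa and Ldhb showed the largest differences between Aged and Control among the well-counted members, in opposite directions, and Ldha encodes the partner subunit of Ldhb. Start regions of these 3 genes are therefore printed here as RefSeq gives them on GRCm38.p6, though not every start of Aldoa and Ldha. Each runs from 250 bases before to 50 bases after the start of transcription, 5′ to 3′ along the gene's own strand. Capitals mark ACGTG on either strand, which reads CACGT when it lies on the other strand.
Aldoa, upstream start, chr7:126800398-126800697, minus strand: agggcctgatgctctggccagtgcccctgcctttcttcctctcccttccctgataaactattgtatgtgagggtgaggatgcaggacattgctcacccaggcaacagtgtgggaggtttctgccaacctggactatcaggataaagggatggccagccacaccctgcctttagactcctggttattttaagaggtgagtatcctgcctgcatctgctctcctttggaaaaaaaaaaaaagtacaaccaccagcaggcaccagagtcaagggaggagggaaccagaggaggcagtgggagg
Aldoa, downstream start, chr7:126799205-126799504, minus strand: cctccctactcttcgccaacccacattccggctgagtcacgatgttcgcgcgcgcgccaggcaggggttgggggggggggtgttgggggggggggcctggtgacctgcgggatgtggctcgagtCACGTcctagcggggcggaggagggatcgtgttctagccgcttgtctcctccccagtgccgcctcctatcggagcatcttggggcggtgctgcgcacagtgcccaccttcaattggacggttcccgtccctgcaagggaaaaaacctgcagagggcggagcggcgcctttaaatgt
Ldhb, chr6:142507908-142508207, minus strand: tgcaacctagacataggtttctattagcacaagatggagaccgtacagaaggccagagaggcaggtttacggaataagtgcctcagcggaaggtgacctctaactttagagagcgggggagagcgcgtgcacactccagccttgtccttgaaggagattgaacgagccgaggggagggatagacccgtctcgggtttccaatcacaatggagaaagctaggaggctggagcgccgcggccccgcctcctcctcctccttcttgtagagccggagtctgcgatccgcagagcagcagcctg
Ldha, chr7:46845554-46845853, plus strand: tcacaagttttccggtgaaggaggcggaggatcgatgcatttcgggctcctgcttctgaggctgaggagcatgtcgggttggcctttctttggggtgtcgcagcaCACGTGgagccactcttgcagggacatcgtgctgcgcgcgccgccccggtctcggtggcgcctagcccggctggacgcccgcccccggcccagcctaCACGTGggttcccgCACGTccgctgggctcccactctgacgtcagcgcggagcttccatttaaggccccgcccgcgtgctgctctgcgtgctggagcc
The printed Ldha window holds ACGTG 5 times, counting both strands. Of its capital runs 2 are the palindrome CACGTG, in which the motif is read on each strand and so counted double. Another Ldha start, chr7:46846832-46847131, is not printed, and its window holds neither ACGTG nor CACGTG. The downstream Aldoa window holds it 1 time, and neither the upstream Aldoa window nor the Ldhb window holds it. Both printed Aldoa windows lie within the main Aldoa identifier (126795234 to 126800751). Neither is the start of the other Aldoa identifier (126800790 to 126809108). RefSeq lists 15 such windows for the 10 symbols, and 8 of them, from 7 symbols, hold ACGTG, against 19.6% of all 32851 windows of this length in the table. The share of G and C in the 15 windows ran from 51.3% to 67.3%, and most lay above the median of 52.7% for all windows. The windows were not matched for base composition, and the difference in motif share was not tested. Of the 3 windows for Aldoa the last 2 overlap, so that they share their motif. Hk2 and Pgk1 hold it 2 times each and Slc2a1 1 time, whereas Gpi1 and Pfkp have none in this window. Pkm and Hk1 hold it 2 times at a single start each, and the other start of each has none. CACGTG occurred in 1 of the 15 windows and in 7.15% of all windows. Only ACGTG and CACGTG were searched for, so a window without them may hold another form of the site. A match describes letters only, and binding was not measured.

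Levels are given as CPM, counts brought to a common library total with TMM scaling. Where genes are compared with each other, the authors' FPKM is used, which also divides by gene length. By mean FPKM over the 10 ovaries the order was Aldoa at 112 (range 80.3 to 165), Pkm at 86.8 (77.0 to 109) and Ldhb at 83.8 (50.6 to 138), whose ranges overlap. Below a gap stood Ldha at 29.8 (22.1 to 37.9), Gpi1 at 29.7 (24.5 to 38.7) and Pgk1 at 25.4 (19.6 to 31.7), again with overlapping ranges. Below a further gap came Slc2a1 at 7.76 (6.29 to 9.54), Hk1 at 6.81 (4.28 to 8.80), Hk2 at 6.49 (4.63 to 13.3) and Pfkp at 4.10 (3.21 to 5.53), where each neighbour overlapped the next but Slc2a1 lay wholly above Pfkp. By FPKM the ranges therefore separate a high, a middle and a low set, and within a set they rank no pair but Slc2a1 over Pfkp. Ranges leave out that the genes were read in the same ovaries. Compared ovary by ovary, Aldoa was above Pkm and Hk2 above Pfkp in every ovary. The order by FPKM rests on the gene lengths behind it, such as 15906 bases for Pfkp and 5494 bases for Slc2a1. In raw counts over the 10 ovaries Pfkp was above Slc2a1 and Hk2, at 11486 against 7555 and 7765. Ldha and Ldhb, placed in different sets, had nearly equal counts (35345 and 35426).

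**Figure D1:**
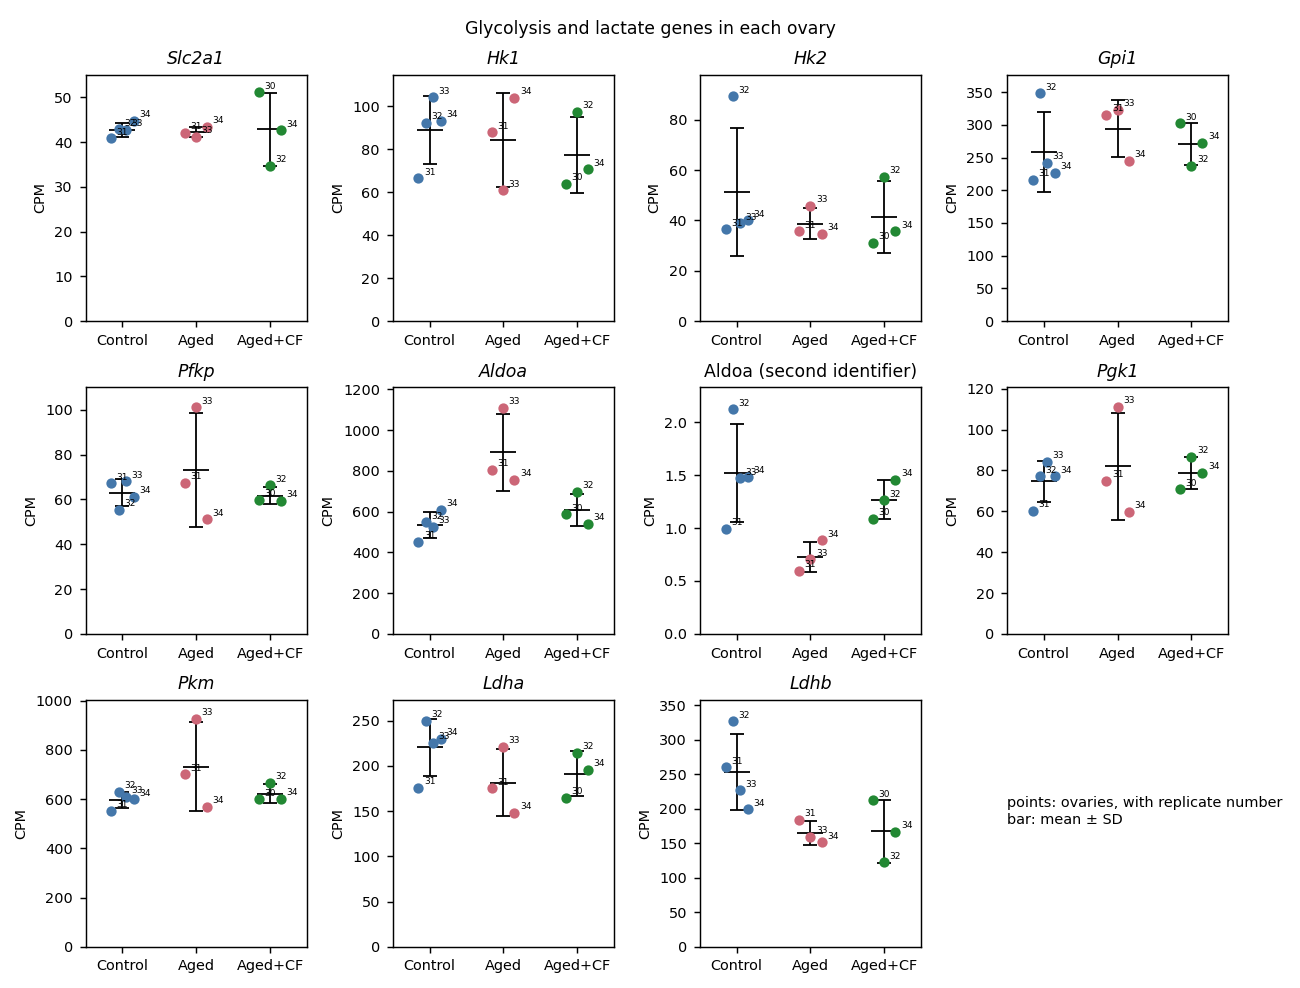
CPM of each gene (y axis, from 0) in each ovary of the Control, Aged and Aged+CF groups (x axis), with replicate numbers beside the points and bars for the mean ± SD; the panel with a bracketed name is the row of Aldoa that lies upstream of the main gene. All 3 Aged ovaries lie above all others for Aldoa (757 to 1108 CPM) and below all Control ovaries for Ldhb (152 to 184 CPM), while the groups overlap for most other genes.

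Depth was similar among the libraries, with 15761789 to 21318254 counts per ovary. The biological coefficient of variation was 0.209 in the Control group, 0.377 in the Aged group and 0.193 in the Aged+CF group. All 16 oocyte and 10 granulosa markers passed the filter, and oocyte markers summed to 486 to 668 CPM in the Control group, 12.6 to 136 CPM in the Aged group and 180 to 290 CPM in the Aged+CF group, and granulosa markers to 5128 to 8104, 3455 to 4513 and 3013 to 5098 CPM. Aged replicate 33 had the lowest TMM factor (0.871), and Aged replicates 33 and 34 lay furthest apart of all pairs within a group (chi-square per gene of 117). Markers of the oviduct epithelium summed to 413 CPM in Control replicate 33 and 313 CPM in Aged replicate 34, against 4.44 to 35.4 CPM in the other libraries.

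A member was counted as changed at a fold change of at least 1.5 with an adjusted p under 0.05, the rule of the study's methods, and also with an unadjusted p under 0.05, the rule of its results. In Aged vs Control 1 of 11 members passed at adjusted p, against 11.1% of all tested genes (5% higher, 6.06% lower), and 3 of 11 passed at unadjusted p, against 18.2%. CPM values of the 2 groups did not overlap for the same 3 members, Aldoa, its upstream row and Ldhb, against 27.5% of all tested genes. By sign alone 5 of 11 members were above 0, and the median log2 fold change was -0.02, beside -0.00 for all tested genes. Values above and below 0 were thus about equally frequent, among the members as among all genes.

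In Aged+CF vs Aged 0 of 11 members passed at adjusted p with edgeR, against 0.00528% of all tested genes. DESeq2, which called 442 of the 18956 genes, and limma-voom, which called 88, also called 0 members. At unadjusted p 1 of 11 passed, against 7.96%, and 2 of 11 had an unadjusted p under 0.05 at any fold, against 16.3%. The groups did not overlap for 2 of 11 members, both of them rows of Aldoa, against 18.6% of all tested genes. The median log2 fold change was -0.06, beside -0.02 for all tested genes. This comparison shares its 3 Aged ovaries with the preceding one, so a deviation of those ovaries enters both with opposite sign.

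Of 11 members, 0 passed at adjusted p in Aged+CF vs Control with edgeR, against 0.179% of all tested genes. DESeq2, with 528 calls over all genes, and limma-voom, with 508, also called 0 members. At unadjusted p 1 of 11, Ldhb, passed, against 7.69%, and it was also the only one at an unadjusted p under 0.05 at any fold, against 14.3%. The groups did not overlap for 0 of 11 members, against 21.9% of all tested genes.

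**Figure D2:**
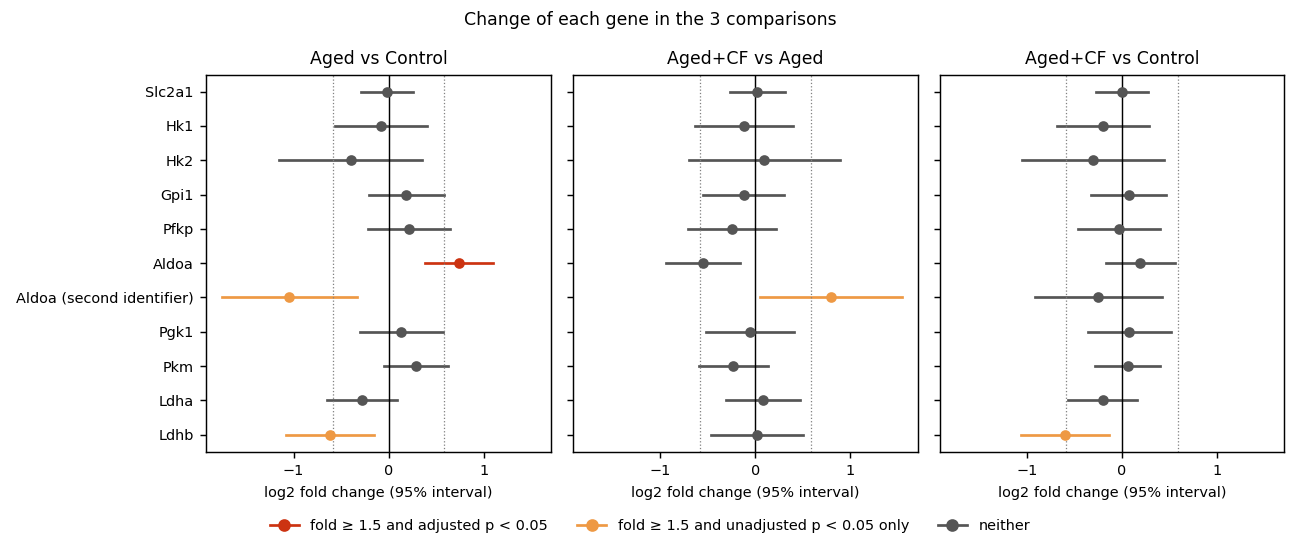
Log2 fold change of each gene (x axis) with its 95% interval from the edgeR fit, in a panel per comparison of groups, with dotted lines at a 1.5-fold change and colour for the rule that was passed. The interval of Aldoa in Aged vs Control (0.38 to 1.10) is the only red one.

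Glucose entry is represented by a single member, which passed in no comparison. Slc2a1 (ENSMUSG00000028645, chromosome 4, 119108711 to 119137983 on GRCm38) encodes GLUT1, the widespread carrier that lets glucose into cells. It read 40.9, 42.8, 42.7 and 44.7 CPM in Control replicates 31 to 34, 42.1, 41.1 and 43.5 CPM in Aged replicates 31, 33 and 34, and 51.1, 34.6 and 42.7 CPM in Aged+CF replicates 30, 32 and 34. The Control and Aged ovaries were nearly level, and Aged+CF held both the highest and the lowest value of all. Aged vs Control gave a log2 fold change of -0.02 (95% CI, -0.29 to 0.25) and Aged+CF vs Aged one of 0.02 (95% CI, -0.27 to 0.31), so both intervals leave out a 1.5-fold change in either direction. Among 6 glucose transporters, Slc2a1 held 46.0% ± 0.906 (SD) of the FPKM in the Control group, 46.3% ± 7.51 in the Aged group and 49.2% ± 3.62 in the Aged+CF group, and Slc2a8, an intracellular carrier, came next at 23.3%, 27.5% and 24.7%.

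Glucose is trapped in the cell as glucose 6-phosphate by hexokinases, of which Hk1 is the general form and Hk2 an inducible form known from cells with high glycolysis. Hk1 (ENSMUSG00000037012, chromosome 10, 62268855 to 62379908) read 66.4, 92.3, 104 and 93.1 CPM in Control, 87.9, 60.9 and 104 CPM in Aged and 63.8, 97.4 and 70.6 CPM in Aged+CF. Every group held ovaries in the sixties and others above 85, so the spread within groups was wider than the differences between them. Aged vs Control gave a log2 fold change of -0.08 (95% CI, -0.56 to 0.40), and Aged+CF vs Aged one of -0.12 (95% CI, -0.64 to 0.39).

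Hk2 (ENSMUSG00000000628, chromosome 6, 82725025 to 82774454) read 36.5, 89.3, 38.9 and 40.1 CPM in Control, 35.7, 45.9 and 34.8 CPM in Aged and 31, 57.5 and 35.7 CPM in Aged+CF. Apart from Control replicate 32 and Aged+CF replicate 32, all ovaries lay between 31 and 45.9 CPM. The log2 fold change of -0.40 in Aged vs Control (95% CI, -1.15 to 0.35) rested on that Control ovary and was 0.01 without it. Hk1 and Hk2 stood level per length, with a Hk2 to Hk1 ratio of 1.05 ± 0.484 (SD) in the Control group, 0.900 ± 0.405 in the Aged group and 0.952 ± 0.10 in the Aged+CF group. That level standing depends on the gene lengths used, 12382 bases for Hk1 and 6858 bases for Hk2. In raw counts over the 10 ovaries Hk1 was above Hk2, at 14961 against 7765. No ratio comparison passed, as the mean log2 ratio differed by -0.21 in Aged vs Control (two-sided exact permutation p = 0.657), by 0.17 in Aged+CF vs Aged (p = 0.8) and by -0.04 in Aged+CF vs Control (p = 0.943). Hk3, known from white blood cells, held 9.19% ± 3.01 of the hexokinase FPKM in the Control group, 14.7% ± 7.0 in the Aged group and 11.9% ± 2.29 in the Aged+CF group.

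**Figure D3:**
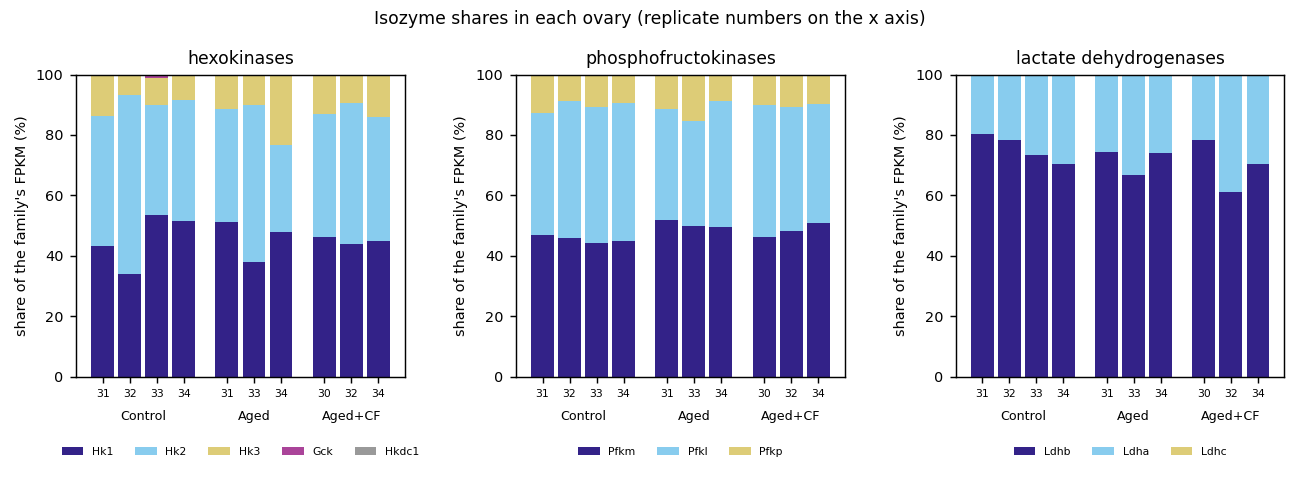
Share of each isozyme in the summed FPKM of its family (y axis, percent) in each ovary (x axis, replicate numbers under the bars, grouped as Control, Aged and Aged+CF), for hexokinases, phosphofructokinases and lactate dehydrogenases. Hk1 and Hk2 hold most of the first family, Pfkp is the smallest share of the middle family (8.60% to 15.4%), and Ldhb is above Ldha in all ovaries.

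Gpi1, glucose-6-phosphate isomerase, makes fructose 6-phosphate for the steps that follow. Gpi1 (ENSMUSG00000036427, chromosome 7, 34201330 to 34230336) read 216, 348, 242 and 227 CPM in Control, 315, 323 and 245 CPM in Aged and 302, 238 and 273 CPM in Aged+CF. Control replicate 32 was the highest of all 10 ovaries and the other 3 Control ovaries were below every Aged ovary. The fitted log2 fold change in Aged vs Control was 0.19 (95% CI, -0.21 to 0.58), and 0.36 without Control replicate 32, with an adjusted p of 0.132 by edgeR in that fit. Against Aged, Aged+CF stood at -0.12 (95% CI, -0.55 to 0.31). A near-identical copy, Gpi-ps, carried 8.42% as many counts as the gene, and the exons of Gpi1 share 741 bases with Gm26762 on the opposite strand.

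Phosphofructokinase commits the sugar to glycolysis, and Pfkp encodes the platelet form beside the muscle form Pfkm and the liver form Pfkl. Pfkp (ENSMUSG00000021196, chromosome 13, 6579768 to 6648777) read 67.2, 55.4, 68.2 and 61.1 CPM in Control, 67.4, 101 and 51.1 CPM in Aged and 59.7, 66.2 and 59.3 CPM in Aged+CF. The Aged group held both the highest and the lowest ovary. Aged vs Control gave a log2 fold change of 0.22 (95% CI, -0.21 to 0.65), and Aged+CF vs Aged one of -0.24 (95% CI, -0.71 to 0.22). Without Aged replicate 33 the Aged vs Control value was -0.06. By FPKM Pfkp was the minor form, with 10.3% ± 1.78 of the family's FPKM in the Control group, 11.9% ± 3.27 in the Aged group and 10.3% ± 0.588 in the Aged+CF group, while Pfkm held 45.5%, 50.4% and 48.3%. These shares depend on the gene lengths behind the FPKM, 15906 bases for Pfkp. By CPM, which leaves out length, the Control means were 63.0 for Pfkp, 81.7 for Pfkm and 135 for Pfkl. The exons of Pfkp share 748 bases with Pitrm1 on the opposite strand, and whether counting used the strand is not given in the sources used here. Exons of Hk1, Slc2a1 and Aldoa share 157, 105 and 25 bases with genes on the opposite strand.

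Aldolase splits fructose 1,6-bisphosphate into 2 triose phosphates, and Aldoa encodes its muscle and general form. Aldoa (ENSMUSG00000030695, chromosome 7, 126795234 to 126800751) read 452, 547, 524 and 608 CPM in Control, 806, 1108 and 757 CPM in Aged and 586, 697 and 541 CPM in Aged+CF. Every Aged ovary lay above every Control and every Aged+CF ovary, and the Control and Aged+CF ovaries overlapped. The rise in Aged vs Control was 0.74 on the log2 scale (95% CI, 0.38 to 1.10), with an adjusted p of 0.017 in edgeR's quasi-likelihood test. It supplied nearly all aldolase message, with 97.8%, 96.2% and 97.6% of the family's FPKM in Control, Aged and Aged+CF.

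Aldoa in Aged+CF vs Aged stood at a log2 fold change of -0.55 (95% CI, -0.94 to -0.16), which is under 1.5-fold, with an edgeR p of 0.0104 unadjusted and 0.203 adjusted. It therefore failed the correction, although all 3 Aged+CF ovaries were below all 3 Aged ovaries. Against Control, Aged+CF stood at 0.19 (95% CI, -0.17 to 0.55), and that interval excludes a 1.5-fold change in either direction. The Aged vs Control rise leaned on Aged replicate 33, without which it was 0.58, just under 1.5-fold, with an edgeR adjusted p of 0.0304, and over all alternatives run the adjusted p lay between 0.000189 and 0.0782. Without that ovary the value against CEFFE-treated mice was -0.36, while it passed 1.5-fold without Aged replicate 31 (-0.63), Aged replicate 34 (-0.67) or Aged+CF replicate 32 (-0.66).

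Markers of other cells stood beside this pattern. The 9 luteal and theca markers summed to 12141, 8393, 10283 and 6675 CPM in Control replicates 31 to 34, to 26898, 36953 and 16201 CPM in Aged replicates 31, 33 and 34, and to 15292, 22312 and 14296 CPM in Aged+CF replicates 30, 32 and 34. Within the Aged and the Aged+CF groups the ovaries stood in the same order for these markers as for Aldoa, with Aged replicate 33 and Aged+CF replicate 32 on top, whereas in Control the ovary with the most luteal and theca marker message had the least Aldoa. Of these 9 markers 7 were higher in Aged vs Control at adjusted p, and 1 was lower at unadjusted p. The erythroid list, of which 5 of 6 genes were tested and all 5 were higher, summed to 71.8 to 112 CPM in the Control group, 265 to 638 CPM in the Aged group and 109 to 260 CPM in the Aged+CF group. Endothelial markers, 3 of 5 of them higher at adjusted p, summed to 344 to 433, 494 to 631 and 438 to 478 CPM in these groups, with the Aged ovaries again in the order 33, 31 and 34. Immune markers, 4 of 8 of them higher, summed to 127 to 142, 161 to 341 and 178 to 219 CPM, with Aged replicate 34 the highest. The list for skeletal muscle, a tissue rich in Aldoa, had 1 of 5 genes tested and Myh4 at 0 in all 10 ovaries, and summed to 0.934 to 1.93, 0.954 to 2.70 and 1.09 to 1.31 CPM. The part of these cells in the level of Aldoa was not tested.

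The other Aldoa identifier (ENSMUSG00000114515, chromosome 7, 126800790 to 126809108, minus strand) lies just upstream of the main gene on the same strand and is annotated as protein coding. It carried 10 to 34 counts per ovary, against 7743 to 15706 for the main gene. It read 0.992, 2.12, 1.47 and 1.48 CPM in Control, 0.596, 0.705 and 0.882 CPM in Aged and 1.09, 1.26 and 1.45 CPM in Aged+CF. The direction was opposite to that of the main gene, as the Aged ovaries were below all others. On the log2 scale Aged vs Control stood at -1.05 (95% CI, -1.76 to -0.34) with an edgeR p of 0.00824 unadjusted and 0.052 adjusted, and 0.79 in Aged+CF vs Aged (95% CI, 0.04 to 1.54) with 0.0398 and 0.285. The unadjusted call in Aged+CF vs Aged was lost without any of Control replicates 33 and 34, Aged replicates 31 and 33, and Aged+CF replicates 32 and 34, and at this depth a few reads move it.

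Pgk1, phosphoglycerate kinase, makes the first ATP of the route. Pgk1 (ENSMUSG00000062070, chromosome X, 106187100 to 106203699) read 60.2, 77.1, 84.1 and 77.1 CPM in Control, 74.9, 111 and 59.9 CPM in Aged and 70.8, 86.7 and 78.9 CPM in Aged+CF. Again Aged spanned the whole range. For Pgk1, Aged vs Control gave a log2 fold change of 0.13 (95% CI, -0.30 to 0.57), and Aged+CF vs Aged one of -0.06 (95% CI, -0.52 to 0.41). The level of Pgk1 itself is uncertain, since Pgk1-rs7, which matches its transcript at 100% over 1255 bases, carried 16361 counts over the 10 ovaries against 13725 for Pgk1. With the copies' counts added to Pgk1 no comparison of it passed either rule.

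Pkm encodes the muscle-type pyruvate kinase, which makes pyruvate and the last ATP. Pkm (ENSMUSG00000032294, chromosome 9, 59656368 to 59679375) read 552, 629, 611 and 599 CPM in Control, 700, 926 and 568 CPM in Aged and 599, 667 and 602 CPM in Aged+CF. Of the Aged ovaries 2 were above every other ovary, and the remaining ovary lay within the Control range. Aged vs Control gave a log2 fold change of 0.29 (95% CI, -0.05 to 0.63), and Aged+CF vs Aged one of -0.23 (95% CI, -0.60 to 0.13). Without Aged replicate 34 the Aged vs Control value was 0.48 with an edgeR adjusted p of 0.0269, still under 1.5-fold, and without Aged replicate 33 it was 0.12 with 0.543. Pkm held over 99% of pyruvate kinase FPKM in each group, and a near-identical copy, Gm6560, carried 8.08% as many counts. The exons of Pkm share 767 bases with Gm49759 on the same strand, which carried 4371 counts over the 10 ovaries.

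Ldha encodes the A subunit of lactate dehydrogenase, which favours making lactate from pyruvate. Ldha (ENSMUSG00000063229, chromosome 7, 46841475 to 46855627) read 176, 250, 226 and 230 CPM in Control, 175, 221 and 148 CPM in Aged and 165, 214 and 196 CPM in Aged+CF. The groups overlapped, with the lowest ovary in Aged and the highest in Control. For Ldha, Aged vs Control had a log2 fold change of -0.28 (95% CI, -0.65 to 0.09), 0.08 in Aged+CF vs Aged (95% CI, -0.31 to 0.47) and -0.20 in Aged+CF vs Control (95% CI, -0.57 to 0.16).

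Ldhb encodes the B subunit, which favours the use of lactate. Ldhb (ENSMUSG00000030246, chromosome 6, 142490249 to 142507957) read 260.1, 327, 227 and 199 CPM in Control, 184, 159.6 and 152 CPM in Aged and 212, 122 and 167 CPM in Aged+CF. All 3 Aged ovaries were below all 4 Control ovaries, and the Aged+CF ovaries spanned the Aged range and reached into that of Control. The fitted log2 fold change in Aged vs Control was -0.62 (95% CI, -1.08 to -0.15), with an edgeR p of 0.0141 unadjusted and 0.0712 adjusted. For Aged+CF vs Control it was -0.60 (95% CI, -1.06 to -0.14) with 0.0162 and 0.245, and in Aged+CF vs Aged it was 0.02 (95% CI, -0.47 to 0.51). The unadjusted call in Aged+CF vs Control was lost in 6 of 10 fits that left out an ovary, those without Aged+CF replicates 32 (-0.42, edgeR unadjusted p = 0.0687) and 34 (-0.57), Control replicate 32 (-0.45) and Aged replicates 31 (-0.58), 33 (-0.57) and 34 (-0.58). None passed at adjusted p in edgeR, and over the alternatives the adjusted p in Aged vs Control lay between 0.038, with DESeq2's Wald test, and 0.179. In Aged vs Control the fold was under 1.5 in 5 of 10 fits that left out an ovary, those without Control replicate 32 (-0.47), Aged replicates 33 (-0.56) and 34 (-0.52), and Aged+CF replicates 30 (-0.58) and 34 (-0.58).

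Oocyte markers were lower in the same ovaries. All 16 tested oocyte markers passed at unadjusted p in Aged vs Control as lower, 12 of them at adjusted p, and the list summed to 486, 668, 516 and 652 CPM in Control replicates 31 to 34, 136, 122 and 12.6 CPM in Aged replicates 31, 33 and 34, and 214, 180 and 290 CPM in Aged+CF replicates 30, 32 and 34. Within groups the orders for these markers and for Ldhb matched only in part. Control replicate 32 was the highest in both and Aged replicate 34 the lowest of its group in both, but Control replicate 34 was lowest in Ldhb and near the top in oocyte markers, and in Aged+CF replicate 34 led in oocyte markers and replicate 30 in Ldhb. The granulosa list had 5 of 10 markers lower at unadjusted p, 1 of 10 at adjusted p and a median log2 fold change of -0.78 in Aged vs Control. It summed to 5128 to 8104 CPM in Control, 3455 to 4513 CPM in Aged and 3013 to 5098 CPM in Aged+CF. In Aged+CF its ovaries stood in the order of Ldhb, with replicate 30 on top and replicate 32 lowest. In Control and in Aged its order matched that of Ldhb only in part. The part of oocytes and granulosa cells in the level of Ldhb was not tested. Ldhb-ps, a near-identical copy, carried 9.07% as many counts as Ldhb.

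Per length, Ldhb was above Ldha in every ovary, with 75.6% ± 4.48 (SD) of the family's FPKM in the Control group, 71.7% ± 4.37 in the Aged group and 69.9% ± 8.47 in the Aged+CF group. This order depends on the gene lengths behind the FPKM, 6710 bases for Ldha and 2412 bases for Ldhb, as the raw counts over 10 ovaries were nearly equal at 35345 and 35426. The Ldha to Ldhb ratio was 0.323 ± 0.0784 in the Control group, 0.397 ± 0.0872 in the Aged group and 0.443 ± 0.177 in the Aged+CF group, and its ranges overlapped. On the log2 scale it differed by 0.31 in Aged vs Control (two-sided exact permutation p = 0.286), 0.10 in Aged+CF vs Aged (p = 0.8) and 0.41 in Aged+CF vs Control (p = 0.257). After Benjamini-Hochberg adjustment over the 6 ratio comparisons all exact p values were at least 0.857, and the smallest p these designs allow is 0.0286 for 4 against 3 ovaries and 0.1 for 3 against 3.

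The rest of glucose metabolism was described with 9 lists that hold 86 further genes, 79 of them tested. In Aged vs Control 10 of the 79 passed at adjusted p, 6 higher and 4 lower, and 15 passed at unadjusted p, 9 higher and 6 lower, which are close to the shares of all tested genes, 11.1% and 18.2%. The count of 10 was not steady, as it was 4 without Control replicate 32, 3 without Control replicate 34 and 4 without Aged replicate 31. In Aged+CF vs Aged 0 of 79 passed at adjusted p with edgeR and 5 passed at unadjusted p, all lower, against 4.05% of all tested genes. DESeq2 called 1 of the 79 at adjusted p in that comparison, beside 442 of all 18956 genes, and without Aged replicate 34 edgeR called 6, where the calls over all genes rose from 1 to 556. In Aged+CF vs Control 0 of 79 passed at adjusted p with edgeR, against 0.179% of all tested genes. DESeq2 called 2 and limma-voom 1, beside 528 and 508 of all 18956 genes. At unadjusted p 4 of 79 passed with edgeR, 1 higher and 3 lower, against 7.69% of all tested genes in either direction.

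**Figure D4:**
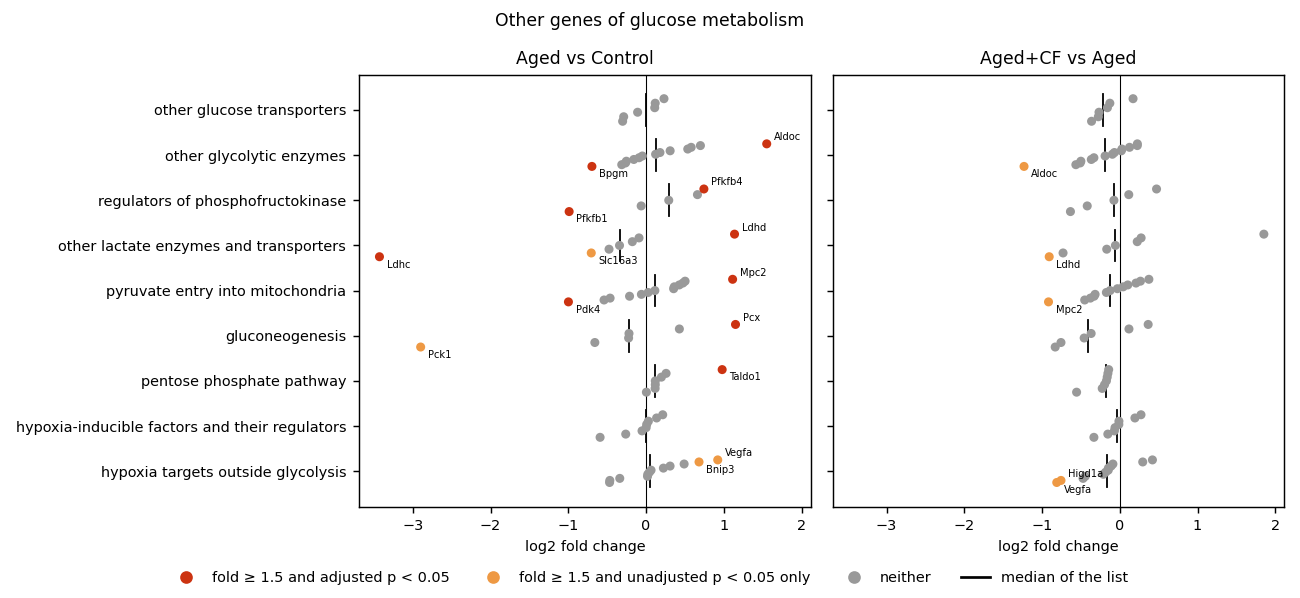
Log2 fold change (x axis) of the other genes of glucose metabolism in 9 lists (y axis), in a panel for age and a panel for treatment of Aged mice, with a point per gene (1 glycolytic enzyme is not shown), a line for the median of a list and names for genes past 1.5-fold at unadjusted p. Changes pointed both ways within most lists in Aged vs Control, and all 5 named genes of Aged+CF vs Aged lie below 0. The place of Ldhc rests on 0 to 3 counts per Aged ovary.

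No gene of 6 tested glucose transporters passed either rule in Aged vs Control, and neither did any of 8 hypoxia-inducible factor genes and their regulators, with list medians of 0.00 and 0.00. Of 12 hypoxia targets outside glycolysis 0 passed at adjusted p and 2 passed as higher at unadjusted p. Vegfa, the blood vessel growth factor, read 83.0, 92.3, 82.6 and 64.4 CPM in Control, 144, 234 and 79.7 CPM in Aged and 82.4, 112 and 66.7 CPM in Aged+CF, with an edgeR p of 0.014 unadjusted and 0.0707 adjusted. Bnip3, a protein of mitochondrial clearance, had a log2 fold change of 0.68 with an adjusted p of 0.0581. Between Aged+CF and Aged, Vegfa stood at -0.81 and Higd1a, a mitochondrial protein, at -0.76, with adjusted p values of 0.276 and 0.161.

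Among 15 tested other glycolytic enzymes 1 rose and 1 fell at adjusted p. Aldoc, the brain-type aldolase, rose from 8.34 ± 4.28 CPM in Control (n = 4) to 24.5 ± 12.3 CPM in Aged (n = 3), a log2 fold change of 1.55 with an edgeR adjusted p of 0.044, although the groups overlapped through Control replicate 33 (14.8 CPM) and Aged replicate 34 (10.4 CPM). Bpgm, which makes 2,3-bisphosphoglycerate, fell from 49.9 ± 3.72 CPM to 30.8 ± 7.74 CPM, a log2 fold change of -0.70 (adjusted p = 0.019). For Aged+CF vs Aged the value of Aldoc was -1.23 with an edgeR adjusted p of 0.262.

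Of 5 regulators of phosphofructokinase 1 rose and 1 fell. The Pfkfb genes among them encode bifunctional enzymes that set the level of fructose 2,6-bisphosphate, which activates phosphofructokinase. Pfkfb4 read 13.7, 13.4, 14.2 and 11.2 CPM in Control, 27.4, 19.1 and 19.3 CPM in Aged and 14.5, 18.8 and 16 CPM in Aged+CF, and its rise in Aged vs Control was 0.74 on the log2 scale (edgeR adjusted p = 0.0177). Pfkfb1 fell by 0.99 (edgeR adjusted p = 0.0254), from 2.95 ± 0.182 CPM to 1.48 ± 0.283 CPM.

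For the fates of lactate and pyruvate, 1 of 7 other lactate genes rose and 1 fell at adjusted p. Ldhd, the mitochondrial D-lactate dehydrogenase, read 25.9, 23.6, 24.9 and 18.1 CPM in Control, 53.3, 72.5 and 27.0 CPM in Aged and 27.9, 31.2 and 22.2 CPM in Aged+CF, a log2 fold change of 1.14 in Aged vs Control (adjusted p = 0.0253) and of -0.91 in Aged+CF vs Aged (adjusted p = 0.213). Ldhc, the germ cell lactate dehydrogenase, had 11, 15, 10 and 17 counts in Control and 0, 3 and 0 counts in Aged, and passed at an adjusted p of 0.0243, with no fold given at this depth. It had 2, 4 and 8 counts in Aged+CF. Slc16a3, the lactate exporter MCT4, had a log2 fold change of -0.71 with an adjusted p of 0.122, and its groups overlapped.

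Pyruvate enters mitochondria through a carrier of Mpc1 and Mpc2, and the pyruvate dehydrogenase kinases switch off its oxidation. Of 13 tested genes of this step 1 rose and 1 fell at adjusted p. Mpc2 read 43.8, 34.4, 40.8 and 36.9 CPM in Control, 84.1, 125 and 44.3 CPM in Aged and 42.3, 56.3 and 35.5 CPM in Aged+CF, with log2 fold changes of 1.11 in Aged vs Control (adjusted p = 0.0306) and, for Aged+CF vs Aged, -0.92 (adjusted p = 0.219). Its highest Aged ovary was replicate 33 and its lowest replicate 34, the same as for Aldoa. Pdk4, a kinase that spares glucose, fell from 30.3 ± 3.79 CPM to 15.2 ± 3.11 CPM in Aged ovaries (log2 fold change -1.0, edgeR adjusted p = 0.0166).

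In the list of gluconeogenesis 1 of 6 tested genes rose. Pcx, pyruvate carboxylase, which makes oxaloacetate from pyruvate, read 105, 97.1, 99.7 and 89.6 CPM in Control, 188, 312 and 152 CPM in Aged and 149, 180 and 175 CPM in Aged+CF, a log2 fold change of 1.15 in Aged vs Control (adjusted p = 0.00949). Pck1, the kinase that makes phosphoenolpyruvate, ran from 0.318 to 4.77 CPM in Control and from 0 to 0.477 CPM in Aged, with an adjusted p of 0.0776. In the pentose phosphate list 1 of 7 rose, Taldo1, transaldolase, which read 121, 121, 124 and 121 CPM in Control, 215, 303 and 201 CPM in Aged and 153, 188 and 148 CPM in Aged+CF, a log2 fold change of 0.98 (adjusted p = 0.00527). The Control ovaries were almost identical for Taldo1 and all ovaries of the other two groups lay above them. In the Aged group Ldhd, Mpc2, Pcx, Taldo1, Vegfa and Bnip3 were all highest in replicate 33 and lowest in replicate 34, as were the summed luteal and theca markers (36953 and 16201 CPM) and the erythroid markers (638 and 265 CPM), whose part in these values was not tested. Aldoc and Pfkfb4, which also rose, were highest in replicate 31. Bpgm and Pdk4, which fell, were likewise highest in replicate 33 and lowest in replicate 34, while Pfkfb1 was highest in replicate 31.

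The calls of Pdk4, Pcx and Taldo1 in Aged vs Control held when any single ovary was left out. That of Ldhc was lost without Aged replicate 31, and the gene was tested in 13 of the alternatives only, and that of Pfkfb4 without Control replicate 34 or Aged replicate 31. Bpgm lost its call without Control replicates 32 or 34 or Aged replicates 31 or 34, and Pfkfb1 without those or Control replicate 31. Aldoc, Ldhd and Mpc2 lost theirs in at least 5 of the 10 fits that left out an ovary, among them those without Aged replicate 31 and without Aged replicate 33.

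Over the 10 ovaries, the members whose log2 CPM ran most alike were Pkm and Pgk1 (Pearson r = 0.85), Pkm and Pfkp (r = 0.85) and Pkm and Aldoa (r = 0.83). The lowest values were those of the Aldoa pair of rows (r = -0.66) and of Ldhb and Aldoa (r = -0.60). Aged replicate 33 was the highest of its group for 7 of 11 members and Control replicate 32 for 6 of 11, so these values share single libraries, and they are given as a description without a test.

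Among 16733 genes with a mean of at least 1 CPM, members left out, those whose pattern over the 10 ovaries ran most like Aldoa were Mtfr1 (r = 0.97), Gabarap (r = 0.97) and Sdhaf4 (r = 0.96). For Pkm they were Smdt1 (r = 0.99), Polr2g (r = 0.98) and H2aj (r = 0.98), for Ldhb Cop1 (r = 0.96), Ercc8 (r = 0.94) and Gm6206 (r = 0.94), and for Ldha Top1mt (r = 0.98), Gemin4 (r = 0.95) and Pdp1 (r = 0.94). For Hk2 the highest was Rpsa-ps12 (r = 0.96), for Pgk1 Gm15361 (r = 0.95), for Pfkp Mettl26 (r = 0.95), for Hk1 Prss53 (r = 0.91), for Gpi1 Foxd2 (r = 0.90) and for Slc2a1 Tmem218 (r = 0.87). All these r values were picked as the highest of 16733 genes over 10 ovaries and were not tested. Single libraries can carry them, and for Hk2 Control replicate 32 stood apart at 89.3 CPM.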

How the data were processed

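RNA of 10 whole ovaries (4 Control, 3 Aged, 3 Aged+CF) was sequenced by the authors on an Illumina NovaSeq. The authors deposited 2 values per gene and ovary, an unnormalized count and an FPKM. The submitters' processing notes list TopHat, Cufflinks 2.1.1 and GRCm38.p4, and the annotation, the counting tool and the use of strand are not given in the sources used here. Groups and replicate numbers came from the sample titles.

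Counts were tested with edgeR 4.0.16 in R 4.3.3 (filterByExpr, TMM, quasi-likelihood F test with a mean per group over all 10 ovaries, two-sided), with Benjamini-Hochberg adjustment over 18956 genes. CPM are TMM-scaled. The authors' FPKM were used only between genes, and ratios of counts per gene length (the length behind the FPKM) were compared with exact permutation tests. Intervals are 95%. The fit was tested on simulated data with 200 changed genes and the same spread in every group. That check does not cover the wider spread of the Aged group. p-values measure the spread between ovaries of different mice.

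Positions are from GENCODE M21 (GRCm38), promoters from RefSeq (GRCm38.p6), matched by symbol for all 10. Near-identical copies were transcripts of at least 95% identity over at least 300 bases. The members and lists were chosen with earlier results of these data known. Named genes were all members, per list up to 3 genes of smallest p in Aged vs Control and up to 2 in Aged+CF vs Aged past 1.5-fold at unadjusted p, and 3 genes most alike per member, of which some are given by the highest alone. For 1 gene of the lists the values are not reported here, although it stays in the counts. Alternatives were DESeq2's size factors, no filter, DESeq2 1.42.0, limma-voom 3.58.1 with sample weights, the replicate block, 2 groups only, any fold, leaving out each ovary, and, chosen after seeing the data, adding copies' counts.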

Additional observations from a re-analysis of the deposited data

Results flagged for a closer look

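Hk2 in Control replicate 32 stood apart from the other 3 Control ovaries, at 89.3 CPM against 36.5 to 40.1 CPM, by Dixon's criterion for a group of 4 samples. This was 1 of 13 values tested in this way, the 11 members and 2 ratios in Control, and chance flags about 1 group in 20. The same ovary was the highest Control ovary for 6 of the 11 members, Gpi1 (348 CPM) and Ldhb (327 CPM) among them.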

How the results depend on the processing

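Of 561 values of single members under the alternatives 44 changed sign, none of them with an unadjusted p under 0.05 in either fit. In Aged vs Control the count of members at adjusted p, 1, became 2 with DESeq2 (Ldhb added) and 2 with limma-voom (the upstream Aldoa row added), and ranged from 0 to 2 on leaving out an ovary, with 0 without Aged replicate 33. At unadjusted p it ranged from 1 to 3, and the pathway count of 10 from 3 to 15. In Aged+CF vs Aged the unadjusted count of 1 became 0 with DESeq2 and ranged from 0 to 2, and the pathway count of 0 at adjusted p became 1 with DESeq2 and ranged from 0 to 6. In Aged+CF vs Control the unadjusted count of 1 became 0 with DESeq2's size factors, with DESeq2's Wald test, with limma-voom and with only 2 groups in the fit, and ranged from 0 to 1. The pathway count of 0 became 2 with DESeq2, 1 with limma-voom and 1 with only 2 groups, and ranged from 0 to 1. Adding near-identical copies changed no call. The cause was not tested.

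Ratio differences on leaving out an ovary ranged from -0.55 to 0.071 (Hk2 to Hk1, Aged vs Control), -0.075 to 0.51 (Aged+CF vs Aged) and -0.22 to 0.24 (Aged+CF vs Control), where the median gave 0.053, and from 0.14 to 0.44, -0.19 to 0.40 and 0.12 to 0.71 for Ldha to Ldhb. With the replicate number as a block, 0 members passed in Aged vs Control at adjusted p, 0 in Aged+CF vs Aged at unadjusted p and 0 pathway genes in Aged vs Control, and Aldoa had 0.77 with an adjusted p of 0.0782. Calls over all genes went from 2096 to 80. A shared number does not mark a shared mouse, and deviations of same-numbered ovaries correlated at 0.14, -0.18 and 0.07 for numbers 31, 33 and 34 of Control and Aged, so the numbers were not treated as pairs. Depth limits the upstream Aldoa row (10 to 34 counts) and Ldhc.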
